A study of Mus musculus with 6 samples.

Results

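The Serpina genes of mouse chromosome 12 encode serpins, a family of secreted serine protease inhibitors and related carrier proteins, and 10 of them were followed in open chromatin of pancreatic β-cells with and without the chromatin remodeler Chd4. The members are Serpina10, Serpina6, Serpina1b, Serpina1d, Serpina1a, Serpina1c, Serpina1e, Serpina11, Serpina12 and Serpina3n, in order along the chromosome, out of 21887 protein-coding genes. They were chosen by name with the difference between genotypes in these libraries already known. Values of the members between genotypes are therefore descriptions and carry no test. A territory is the gene span plus 10 kb on each side, and the 10 territories held 29 of the 156745 regions in which at least 1 library had a peak.

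ATAC-seq, which marks accessible DNA by letting a transposase insert adapters there, was run on Tomato-positive β-cells sorted from islets of tamoxifen-treated mice. The 3 control libraries carry the genotype label Control, and the 3 knockout libraries carry the label Chd4KO (Chd4Db in the design text). Tamoxifen was given to both groups. Which promoter drives the deletion, how old the mice were and whether each library is a separate animal was not given in the sources used here. Chd4 is a helicase and a core subunit of the NuRD remodeling complex. A peak list cannot show a deleted exon, and the genotype labels were not checked with it. Chd4 itself had 5286 to 5452 bp under peaks in the control and 5050 to 6007 bp in the knockout libraries.

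A serpin inhibitor presents a loop as bait, and the protease that cuts it is trapped in a covalent complex. Serpina1a to Serpina1e are tandem mouse copies of the gene for α1-antitrypsin, the inhibitor of neutrophil elastase that the liver secretes in large amounts. In liver, the factors HNF4, forkhead A proteins and C/EBP are known to act at the α1-antitrypsin promoter. Mature β-cells also use members of these factor families. α1-antitrypsin is best known as a hepatocyte product and is not a textbook marker of the β-cell.

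The libraries held 100109 to 110693 peaks in the control and 119088 to 124125 in the knockout group, and the read depth of each is unknown. All 10 β-cell markers had peaks in every library, and bases under peaks in their territories summed to 40663 to 43872 bp in the control and 39856 to 42669 bp in the knockout libraries. Scaled to equal library totals, these sums were 42801 to 48203 bp against 38253 to 39329 bp. With scaling, Ins1 and Mafa were called lower (log2 differences of -0.62 and -0.46), 2 of 10 markers beside 14.6% of all genes. Without scaling, Ins1 alone was called lower, and Pdx1 was called higher (3891, 3757 and 3560 bp against 4584, 4637 and 4343 bp). Of 10 acinar markers, Cpa1, Prss1, Pnlip and Amy2b were listed at 0 bp in every library, and Ctrb1, a chymotrypsinogen gene, was called higher (549, 335 and 517 bp against 1351, 1591 and 1462 bp). Of 10 hepatocyte markers, 9 were found by name, all had peaks in every library, and their sums were 15106 to 16000 bp in the control and 17630 to 18834 bp in the knockout. Scaled, the hepatocyte sums overlapped (15979 to 16731 bp against 16250 to 18236 bp), and 0 of the 9 were called, against 2 (Tat and Ttr) without scaling. Sums over the acinar markers (5023 to 5200 bp against 6144 to 7672 bp) and over 5 endothelial markers (8708 to 10055 bp against 12733 to 14569 bp) were also higher in the knockout, and sums over 7 α- and δ-cell markers were lower (11372 to 12530 bp against 9680 to 10241 bp). Those of 5 leukocyte markers overlapped (5238 to 6882 bp against 6305 to 7356 bp). A sum need not hold for each marker of its list. With scaling, only Ctrb1 was called of 5 acinar markers tested. Of 5 endothelial markers only Erg was called, higher, at 987, 1608 and 1493 bp against 2933, 3329 and 3007 bp. Irx1, Irx2 and Hhex were called lower of 7 α- and δ-cell markers. Of 4 leukocyte markers tested, Cd74 was called higher and Spi1 lower. These calls stood beside 7.57% of all genes called higher and 14.6% lower. The sums of acinar and endothelial markers, and unscaled those of hepatocyte markers, thus ran in the same direction as the Serpina1 genes, and their part in the result was not tested. The albumin gene Alb, a defining hepatocyte marker, had 669 to 792 bp in the control and 776 to 972 bp in the knockout.

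The promoter windows of the α1-antitrypsin genes are shown because 4 of these 5 nearly identical gene starts carried the differences between genotypes described next. Each window runs from 250 bases before to 50 bases after the RefSeq gene start in GRCm38.p6, the assembly behind mm10, and is printed 5′ to 3′ on the gene's strand, which is the minus strand for these 5 genes. Capitals mark TGTTTNC, where N is any base, the core letters of the forkhead motif. The windows lie at chr12:103738140-103738439 (Serpina1b), chr12:103773584-103773883 (Serpina1d), chr12:103863570-103863869 (Serpina1a), chr12:103904901-103905200 (Serpina1c) and chr12:103956848-103957147 (Serpina1e).
Serpina1b: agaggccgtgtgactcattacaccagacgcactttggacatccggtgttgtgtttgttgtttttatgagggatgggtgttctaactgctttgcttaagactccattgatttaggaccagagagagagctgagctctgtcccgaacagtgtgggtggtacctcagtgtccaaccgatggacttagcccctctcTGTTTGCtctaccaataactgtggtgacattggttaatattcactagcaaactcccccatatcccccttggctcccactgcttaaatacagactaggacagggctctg
Serpina1d: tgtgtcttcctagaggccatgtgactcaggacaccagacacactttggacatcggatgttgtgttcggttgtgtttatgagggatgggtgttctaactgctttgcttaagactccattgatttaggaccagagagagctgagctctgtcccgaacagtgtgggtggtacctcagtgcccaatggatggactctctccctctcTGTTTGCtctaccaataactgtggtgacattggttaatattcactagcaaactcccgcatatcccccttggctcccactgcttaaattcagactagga
Serpina1a: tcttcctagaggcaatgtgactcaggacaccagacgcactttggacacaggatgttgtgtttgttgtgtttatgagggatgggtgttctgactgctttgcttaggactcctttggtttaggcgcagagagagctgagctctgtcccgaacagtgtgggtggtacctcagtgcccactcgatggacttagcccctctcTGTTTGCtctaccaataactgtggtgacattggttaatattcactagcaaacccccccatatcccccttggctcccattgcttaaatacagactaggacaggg
Serpina1c: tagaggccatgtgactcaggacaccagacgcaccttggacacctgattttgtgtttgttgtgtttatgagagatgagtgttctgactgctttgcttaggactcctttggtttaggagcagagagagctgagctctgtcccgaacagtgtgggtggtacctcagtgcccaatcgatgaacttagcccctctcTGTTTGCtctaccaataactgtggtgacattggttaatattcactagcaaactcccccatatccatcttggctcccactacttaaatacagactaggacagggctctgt
Serpina1e: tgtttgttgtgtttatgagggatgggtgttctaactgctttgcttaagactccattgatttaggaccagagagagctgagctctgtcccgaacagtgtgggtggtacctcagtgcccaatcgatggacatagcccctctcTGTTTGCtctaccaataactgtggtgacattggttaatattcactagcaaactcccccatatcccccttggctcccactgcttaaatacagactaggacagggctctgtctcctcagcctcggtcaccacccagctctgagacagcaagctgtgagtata

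The 5 windows were 91.4% to 97.6% identical over the aligned columns of the 10 pairs, and shared an uninterrupted run of 59 bases that includes these letters. TGTTTNC, searched on both strands, occurred in all 5 windows and in 20.5% of the 32851 promoter windows of the RefSeq table. In Serpina1a, Serpina1b, Serpina1c and Serpina1d it lay 42 to 59 bases before the gene start, and in Serpina1e, whose annotated start is further downstream, 104 to 110 bases before it. TTGCNNAA, the letters of a C/EBP site, occurred in 4 of the 5 (not in Serpina1c) and in 10.8% of all windows. In Serpina1b, Serpina1d and Serpina1e it lay 142 to 211 bases before the start, but in Serpina1a 24 to 31 bases after it. TGANTCA, the AP-1 letters, occurred in 4 of the 5 and in 7.81% of all windows. In those 4 it lay 223 to 240 bases before the start. The window of Serpina1e begins downstream of the matching stretch, so whether Serpina1e has these letters was not seen. None of these motifs overlapped another in the windows. Of the other members, Serpina11, Serpina12 and Serpina3n had windows in the table, and none of the 3 held TGTTTNC.

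Peaks at the starts of Serpina1b, Serpina1c, Serpina1d and Serpina1e were present in every knockout library and were absent or narrow in the control libraries. At Serpina1d (chromosome 12, 103763587 to 103773633) no control library had a peak over the promoter window. Its peaks there were 337, 680 and 316 bp wide in knockout libraries 1, 2 and 3. The region around this start (chr12:103773391-103774087) was gained, meaning that every knockout library and 0 control libraries had a peak there. At Serpina1b (103728156 to 103738189) only control library 2 had a peak, of 247 bp, and the knockout libraries had 327, 984 and 555 bp. At Serpina1e (103946931 to 103956897) only control library 2 had a peak, of 228 bp, and the knockout libraries had 524, 581 and 601 bp. Each of these 2 starts thus missed the gained class through 1 narrow peak of the same control library. At Serpina1c (103894926 to 103904950) all 6 libraries had a peak, of 221, 236 and 238 bp in the control and 689, 819 and 777 bp in the knockout libraries. At Serpina1b, Serpina1c and Serpina1e the narrowest knockout peak was wider than the widest control peak. For Serpina1b and Serpina1e this rests on the single peak of control library 2, and Serpina1d had no control peak to compare.

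Serpina1a was the exception among the 5 copies. No library had a peak over its promoter window (chr12:103863570-103863869), although this window was 92.5% to 95.9% identical to those of the other copies. Its main region (chr12:103869901-103870821) lay 6282 bp upstream of the start and was called in all 6 libraries. Peaks covered 529, 633 and 586 bp of it in control libraries 1 to 3 and 643, 909 and 635 bp in knockout libraries 1 to 3. The groups did not overlap, but knockout library 3 lay only just above control library 2. Among all 32851 promoter windows, 49.2% had no peak in any library, 46.5% had a peak in all 3 knockout libraries, and 45.5% had one in all 3 control libraries. A peak in all 3 knockout libraries and at most 1 control library occurred in 1.48% of windows (Serpina1b, Serpina1d and Serpina1e), and one in all 3 knockout and 0 control libraries in 1.08% (Serpina1d). The choice of members used this contrast, so nothing is read from these counts.

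**Figure D1:**
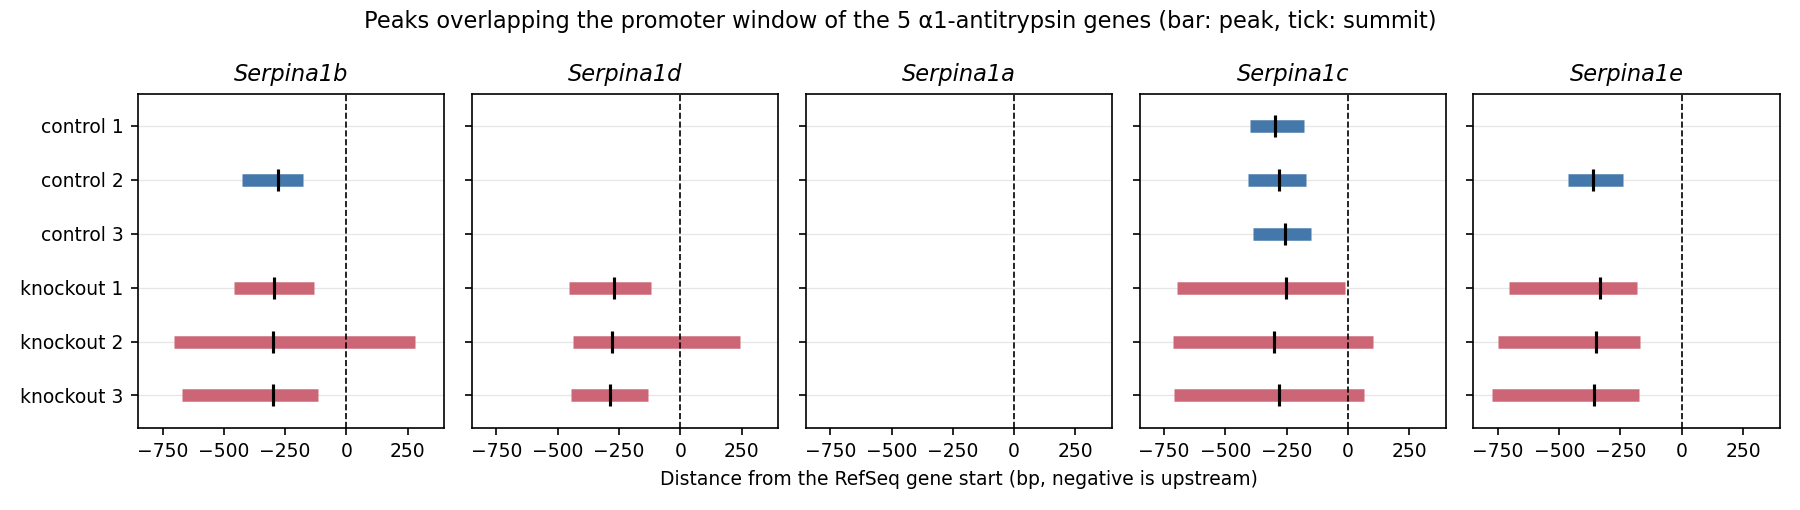
Peaks that overlap the promoter window of each α1-antitrypsin gene, drawn by distance from the RefSeq gene start in bp (x axis, negative is upstream) for each library (rows; blue, control; red, knockout); bars are peaks and black ticks their summits. Summits of all 17 peaks lie between 362 and 251 bp upstream, no peak stands at Serpina1a, and control peaks are 221 to 247 bp wide where present.

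The summits of these peaks lay at nearly the same place in each copy. Over 17 peaks in 4 genes, the summit was 251 to 362 bp upstream of the start, with a median of 295 bp. The farthest summits, 333 to 362 bp upstream, were those of Serpina1e. These summits lay upstream of the printed windows, so the peaks centred outside the letters shown and reached them with their downstream flank. All 5 control peaks and 8 of the 12 knockout peaks ended before the gene start. The 4 that crossed it were those of knockout library 2 at Serpina1b, Serpina1c and Serpina1d and of knockout library 3 at Serpina1c, and the longest reached 279 bp into Serpina1b. Fold enrichment at the summit, the authors' own value, was 5.96 to 23.8 for the 12 knockout peaks, and their −log10 q stood at percentiles 28.1 to 79.7 of their own lists. The 5 control peaks had fold enrichments of 4.17 to 5.13 and percentiles of 14.8 to 25.9 in theirs.

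The copies are similar enough that a short read can match more than 1 of them, and the rule for placing such reads was not given in the sources used here. Of the 251 stretches of 50 bases in each window, 56.2% of those of Serpina1e, 37.5% of Serpina1b, 31.9% of Serpina1d, 15.9% of Serpina1c and 10.8% of Serpina1a occurred letter for letter in another copy's window. Of the 72 stretches that ended at least 130 bases before the start, nearest to the summits, 0 were shared in Serpina1a and in Serpina1c, 11 in Serpina1b, 5 in Serpina1d and 67 in Serpina1e. The annotated start of Serpina1e lies further downstream, so its stretches match parts nearer the start in the other copies. Its counts are therefore not comparable with theirs. Only the windows were searched, and the sequence at the summits lay outside them. Levels of single α1-antitrypsin copies are therefore uncertain, and the part of read placement in the result was not tested.

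Over the whole territory, bases under peaks (the covered length), unscaled, were higher in every knockout than in any control library at each of the 5 copies. Covered length is given unscaled in bp, and it depends on how many peaks were called and how wide they were. Serpina1d was listed at 0 bp in each control library and had 950, 1467 and 871 bp in knockout libraries 1 to 3. Besides the start, its territory held a second gained region (chr12:103756713-103757312), 6275 bp beyond the gene's far end, with 340, 587 and 555 bp. Serpina1b had 0, 247 and 0 bp in control libraries 1 to 3 and 327, 984 and 555 bp in the knockout. Serpina1e had 0, 228 and 0 bp in the control and 524, 1141 and 1131 bp in the knockout. Within Serpina1e a further region (chr12:103954936-103955495) was called in knockout libraries 2 and 3 only, with 560 and 530 bp. Serpina1c had 221, 236 and 238 bp (232 ± 9.3, SD, n = 3) against 689, 1090 and 777 bp (852 ± 211). Serpina1a had 529, 633 and 586 bp (583 ± 52) against 643, 1486 and 845 bp (991 ± 440). Scaled to equal library totals, the groups overlapped at Serpina1a (581, 632 and 642 bp against 608, 1370 and 818 bp). An unscaled separation of the groups, with the knockout higher, was found in 28.5% of all genes. Knockout library 2 had the highest value in all 5.

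**Figure D2:**
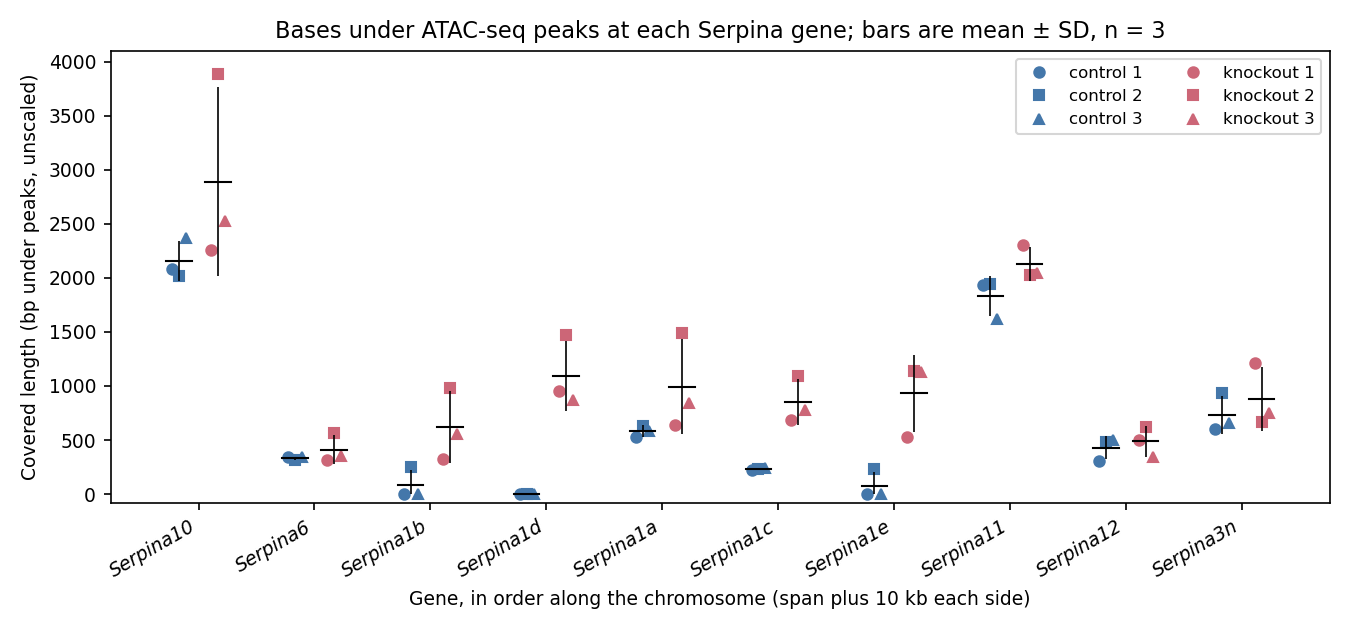
Covered length in bp, unscaled (y axis), for each of the 10 genes in order along the chromosome (x axis) in control (blue) and knockout (red) libraries 1 (circle), 2 (square) and 3 (triangle); horizontal lines are means and vertical lines are ± SD, n = 3, drawn no lower than 0. Serpina1d has 0 bp in every control library and 871 to 1467 bp in the knockout, while the groups overlap at Serpina10, Serpina6, Serpina12 and Serpina3n.

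Serpina10 encodes the protein Z-dependent protease inhibitor, which acts on activated clotting factors, and its mean covered length was above that of the other members in both groups. It had 2079, 2020 and 2370 bp (2156 ± 187) in control and 2255, 3886 and 2526 bp (2889 ± 874) in knockout libraries, and the groups overlapped. The region over the high-coordinate end of its span (chr12:103630562-103631891) was called in all 6 libraries, with 1132 to 1292 bp in the control and 1166 to 1281 bp in the knockout. A region 134 bp beyond the other end (chr12:103615547-103616541) had 298, 496 and 520 bp in the control and 523, 995 and 542 bp in the knockout, so knockout library 1 lay just above control library 3. The value of 3886 bp came from knockout library 2, which included 995 bp in that region and 711 bp at a region inside the neighboring gene Ppp4r4. Knockout library 3 and control library 1 also had peaks in the latter, of 607 and 376 bp.

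Serpina6 encodes corticosteroid-binding globulin, a hormone carrier without inhibitor function, and it had little open chromatin. Its covered length was 341, 314 and 340 bp (332 ± 15) in the control and 317, 563 and 348 bp (409 ± 134) in the knockout. A single region (chr12:103643371-103643729), 2901 bp from the gene, carried the values of 5 libraries. Knockout library 2 had a further peak of 229 bp that the territories of Serpina6 and Serpina10 share. The groups overlapped.

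Serpina11, a neighbor of the α1-antitrypsin copies, had 1937, 1941 and 1622 bp (1833 ± 183) in the control and 2304, 2023 and 2048 bp (2125 ± 156) in the knockout. Unscaled, the groups did not overlap, though the highest control and the lowest knockout library lay close together. Scaled to equal library totals, the groups overlapped (2128, 1938 and 1778 bp against 2177, 1865 and 1983 bp). Of the 6 regions of Serpina11, 4 were called in all 6 libraries. Inside the gene, 346 bp from the start, the region chr12:103988851-103989622 had 543 to 772 bp in the control and 550 to 736 bp in the knockout. The region chr12:103977694-103978390, 1853 bp beyond the gene's far end, had 484, 401 and 470 bp in the control and 529, 690 and 543 bp in the knockout, and the groups did not overlap there. Serpina12 encodes vaspin, a secreted inhibitor of the kallikrein protease Klk7 first known from fat tissue. It had 304, 480 and 499 bp (428 ± 108) in the control and 501, 622 and 341 bp (488 ± 141) in the knockout, and the groups overlapped. The third gained region (chr12:104054321-104054722) lay 9878 bp upstream of Serpina12 at the very edge of its territory and had 275, 402 and 281 bp.

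Serpina3n encodes an acute-phase inhibitor related to α1-antichymotrypsin, and its start ran against those of the α1-antitrypsin copies. The region over its start (chr12:104406474-104406943) was called in all 3 control libraries and in knockout library 1 only. Its peaks were 340, 440 and 412 bp wide in control libraries 1 to 3 and 356 bp in knockout library 1. Their fold enrichments were 4.27, 5.93 and 5.98 in the control libraries and 4.17 in knockout library 1. Their −log10 q stood at percentiles 17.6, 32.7 and 31.6 in the control lists and 11.8 in that of knockout library 1. A peak in all 3 control libraries and at most 1 knockout library occurred in 0.527% of all promoter windows. No lost region, the reverse of a gained one, stood in any territory, and this start missed that class through 1 peak of knockout library 1. The promoter window (chr12:104406458-104406757, plus strand, no capitals because it holds no TGTTTNC) is printed because the summits lay within it, from 36 bp before to 11 bp after the start.
Serpina3n: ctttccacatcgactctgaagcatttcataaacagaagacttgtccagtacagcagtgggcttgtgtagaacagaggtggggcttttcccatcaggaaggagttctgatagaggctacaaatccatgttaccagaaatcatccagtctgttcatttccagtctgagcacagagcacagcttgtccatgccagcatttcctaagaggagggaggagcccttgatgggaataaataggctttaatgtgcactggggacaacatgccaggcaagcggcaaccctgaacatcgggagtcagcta

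Downstream of Serpina3n the pattern was the opposite. The region chr12:104415559-104416157, 1225 bp beyond the gene, had 0, 200 and 0 bp in the control and 599, 375 and 472 bp in the knockout libraries. A further region (chr12:104418548-104418844) was called in all 6 libraries. Over the whole territory these differences offset each other. Covered length was 599, 934 and 659 bp (731 ± 179) in the control and 1214, 666 and 749 bp (876 ± 295) in the knockout, and the groups overlapped.

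Levels of different genes were compared per kb of territory. In the control the order was Serpina10 (61.9 ± 5.4 bp per kb), Serpina11 (61.7 ± 6.2), Serpina3n (26.4 ± 6.5), Serpina1a (19.2 ± 1.7), Serpina12 (12 ± 3.0), Serpina6 (10.8 ± 0.50), Serpina1c (7.72 ± 0.31), Serpina1b (2.74 ± 4.7), Serpina1e (2.54 ± 4.4) and Serpina1d at 0. The ranges overlapped between Serpina10 and Serpina11, between Serpina12 and Serpina6, and along the last 4 genes. In the knockout Serpina10 (83.0 ± 25) and Serpina11 (71.5 ± 5.2) again came first. Serpina1d (36.5 ± 11), Serpina1a (32.7 ± 15), Serpina3n (31.6 ± 11), Serpina1e (31.1 ± 12), Serpina1c (28.4 ± 7.0) and Serpina1b (20.7 ± 11) followed, then Serpina12 (13.7 ± 4.0) and Serpina6 (13.4 ± 4.4). From Serpina1d on, each gene's range overlapped that of the next. The 4 genes at the bottom of the control order thus stood above Serpina12 and Serpina6 in the knockout means.

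**Figure D3:**
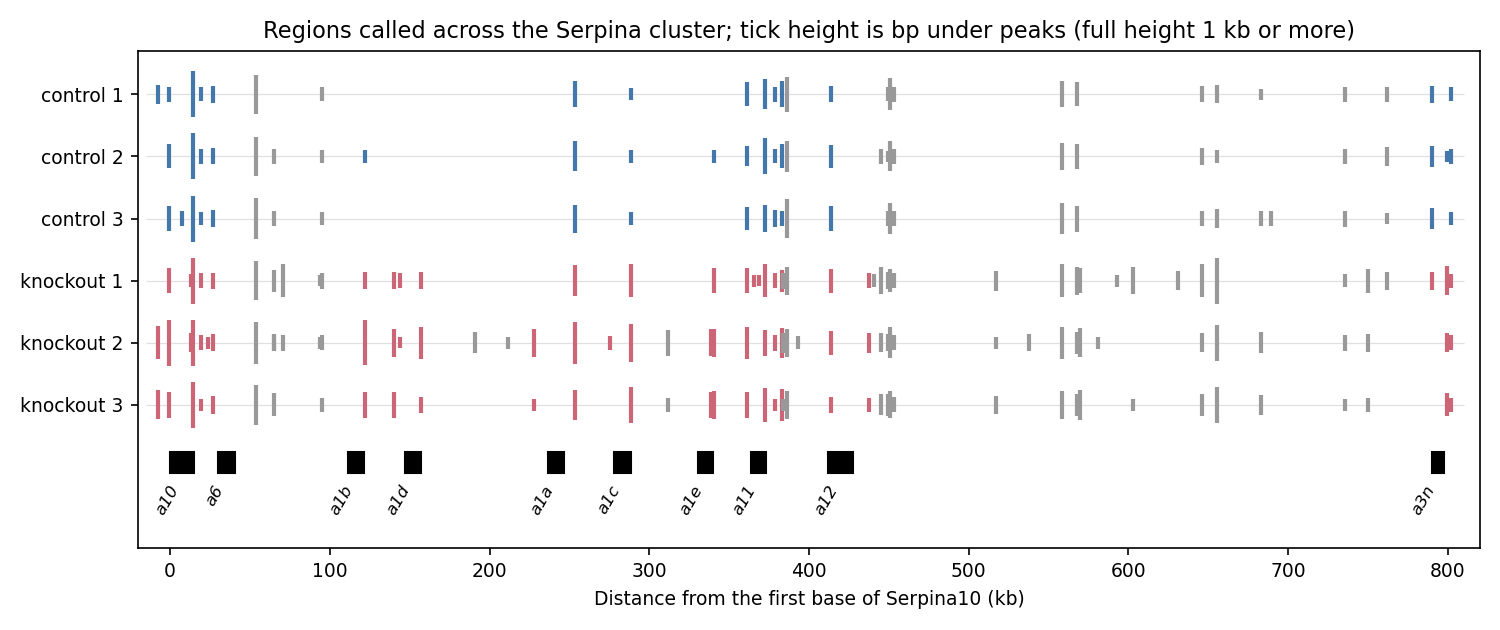
Regions called in each library (rows) across the cluster by distance in kb from the first base of Serpina10 (x axis); tick height is bp under peaks up to 1 kb, ticks in member territories are blue (control) or red (knockout), other ticks grey, and black boxes are the 10 genes (a1b is Serpina1b). Around the boxes a1b to a1e the knockout rows hold more and taller ticks than the control rows.

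Each base counted once, the territories held 6010, 7033 and 6314 bp under peaks in control libraries 1 to 3 and 9724, 13699 and 10191 bp in knockout libraries 1 to 3. The ratio of the means was 1.74, and 1.54 with every library scaled to the same total, while over all peaks of the libraries it was 1.12. Every knockout library lay above every control library. The 29 regions comprised 3 gained, 0 lost and 12 called in all 6 libraries, with 14 of other patterns. Gained regions were 10.3%, lost regions 2.62% and regions of all 6 libraries 48.0% of all 156745 regions, and 10.3% was also the share of gained regions among the 29. Knockout libraries alone had 11 of the 29 regions, against 23.6% of all regions, and control libraries alone had 1, against 11.5%. More knockout than control libraries had a peak in 15, against 31.6% of all regions, and fewer in 2, against 17.1%. All 3 knockout libraries and control library 2 alone had 3 regions, at Serpina1b, Serpina1e and Serpina3n, a pattern of 1.83% of all regions. Of the 12 regions of all 6 libraries, 4 had more covered bases in every knockout than in any control library, against 18.8%, and none had fewer, against 14.0%. Those 4 were at Serpina10, Serpina1a, Serpina1c and Serpina11. Knockout library 2 had the most covered bases in 15 of the 29 regions, against 22.0% of all regions, and without it the ratio was 1.54.

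**Figure D4:**
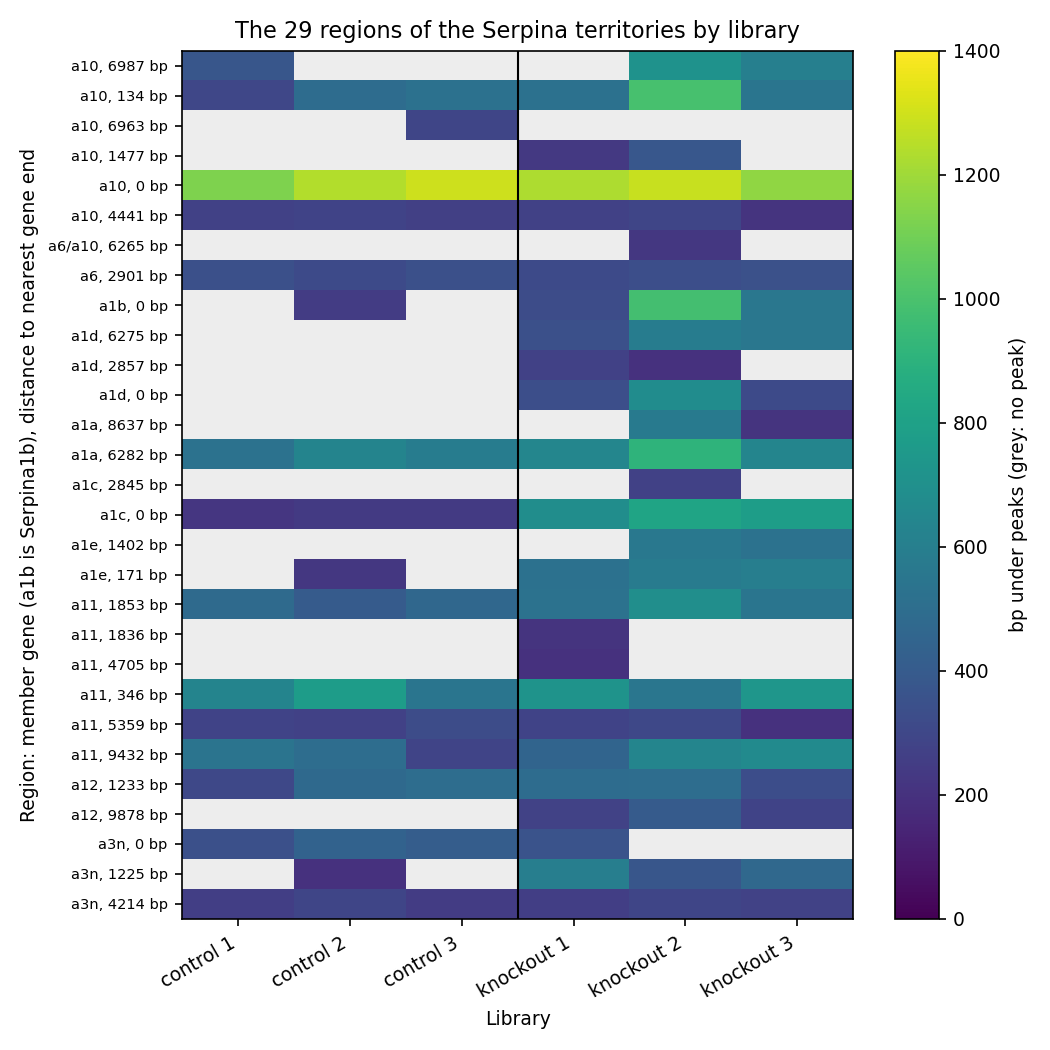
Bases under peaks in each library (columns) for the 29 regions of the territories in order along the chromosome (rows, named by member gene, a1b being Serpina1b, and the distance to the nearest member gene end); brighter colour is more bp and grey means no peak. The rows of the α1-antitrypsin genes are mostly grey in the control columns, whereas the main Serpina10 and Serpina11 rows are coloured in all 6.

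In a limma fit across 17711 genes on log2(covered length + 300 bp), scaled to equal totals, 4 members fell among the genes called higher in the knockout (adjusted p under 0.05) and 0 among those called lower. The background was 7.57% of genes called higher and 14.6% lower. The choice of members used this contrast and these 4, Serpina1b, Serpina1c, Serpina1d and Serpina1e, passed the minimum mean of 300 bp only through their knockout libraries, so the count is no test of the members and nothing is read from it. These 4 had log2 differences of 2.13 ± 0.19 (SE) for Serpina1d, 1.66 ± 0.30 for Serpina1e, 1.21 ± 0.33 for Serpina1b and 1.00 ± 0.15 for Serpina1c. For Serpina1a the difference was 0.38 ± 0.21, and for the other 5 members it was between 0.01 and 0.19. Serpina1b was not called without scaling (log2 difference 1.27), without control library 1 (1.08), without control library 3 (1.08) or without knockout library 3 (1.22), and without knockout library 2 it fell below the minimum and was not tested. The median over the 10 members was 0.28 against -0.09 over all genes. The same choice of members and the same minimum shaped this median, so nothing is read from it. All 10 members passed the minimum. Genes called higher made up 34.2% of all calls with scaling and 83.5% without it, which raised the median over all genes by 0.15. Unscaled, the groups did not overlap with the knockout higher at 6 members (the 5 copies and Serpina11), against 28.5% of genes. With scaling, the groups overlapped at Serpina1a and Serpina11. An unscaled separation with the knockout lower was found at 0 members, against 9.68% of genes.

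Most other Serpina genes of the cluster had little open chromatin. Of the 14 on the list, 13 were protein-coding in the table, 4 passed the minimum, and Serpina1f and Serpina3i were called higher and 0 lower. Serpina1f passed the minimum only through its knockout libraries, as did Serpina7 and Ctsg of the lists below, so their calls are no independent evidence of a direction. Serpina1f, the sixth gene of the Serpina1 group, had 0, 278 and 270 bp in the control and 1166, 934 and 471 bp in the knockout libraries (log2 difference 1.19 ± 0.32 SE). Serpina3i had 681, 570 and 691 bp against 1690, 1165 and 1227 bp (0.67 ± 0.14). The Serpina3 genes are close copies of each other too, so their single values carry the same uncertainty. Serpina5, which encodes an inhibitor of activated protein C, and Serpina3a were listed at 0 bp in every library. Among 22 serpins elsewhere, 13 were tested, Serpina7, Serpini1 and Serpinb8 were called higher and Serpind1, the heparin cofactor gene, was lower. Serpina7 was called only with scaling. Serpind1 had 812, 815 and 909 bp against 336, 256 and 550 bp.

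Proteases that serpins inhibit were called higher at 2 of 10 tested genes and lower at 0, beside 7.57% and 14.6% of all genes. Without scaling, which also gave more higher calls over all genes, 5 were called higher, with Elane, Prtn3 and Plau added. Ctsg, which encodes the leukocyte protease cathepsin G, had 0, 200 and 0 bp in the control and 770, 669 and 652 bp in the knockout libraries. Cela2a, a pancreatic elastase gene, had 709, 960 and 542 bp against 1389, 1543 and 1225 bp. The elastase gene of neutrophils, Elane, had 1271 to 1424 bp in the control and 1919 to 1994 bp in the knockout. Of 11 factors known at Serpina1 genes in liver, Hnf4a alone was called with scaling, at 2935, 3324 and 3111 bp against 5583, 5819 and 4653 bp (log2 difference 0.56 ± 0.08 SE), and Cebpb was added without it. Of 6 flanking genes, Ifi27 was called higher and 0 lower. The medians of the log2 difference were 0.44 for the 4 other Serpina genes tested and -0.03 for the flanking genes. They were -0.10 for serpins elsewhere, 0.24 for proteases and -0.05 for the factors, beside -0.09 over all genes. The medians of the other Serpina genes, serpins elsewhere and proteases include Serpina1f, Serpina7 and Ctsg, which passed the minimum only through knockout libraries. Nothing is read from those medians.

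Among genes outside the cluster, those with the library profile nearest to the mean of the 10 members over the 6 libraries were Gm48350, Cldn18, Ccr9, Olfr539 and Tmprss13. Their root mean square distances were 0.10 to 0.15 on the log2(scaled covered length + 300 bp) scale. Cldn18, a tight junction gene, had 330, 549 and 365 bp in the control and 815, 994 and 745 bp in the knockout libraries.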

How the data were processed

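Tomato-positive β-cells were sorted by flow cytometry from dispersed islets, and 27000 to 80000 cells gave 14000 to 45000 nuclei per library, with fragments over 600 bp excluded, per the labels' protocols. The authors deposited a peak list for each of 3 control and 3 knockout libraries, called per library with MACS2 on shifted cutting sites, per the peak names in the deposited files, with mm10 as the build per the submitters' processing notes. The aligner, the treatment of reads with several matches and the caller's version and settings were not given in the sources used here. Each deposited peak has a start, end and summit, a score (10 times the −log10 q, within 1), the authors' fold enrichment ratio, and the authors' −log10 p-value and −log10 q-value, the lowest −log10 q being 1.31 to 1.39. The lists hold no read counts, so depth is unknown and no counting interval can be given.

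Peaks of all libraries that overlapped by at least 1 bp were merged into regions. Gene spans and promoter windows came from the RefSeq tables for GRCm38.p6, and 8 of the 10 members matched the promoter table (Serpina6 and Serpina10 did not). Covered length was scaled to the mean total of the 6 libraries, and log2(covered length + 300 bp) was fitted with limma 3.58.1 (R 4.3.3) with a trend, over 17711 genes with a mean of at least 300 bp, with Benjamini-Hochberg adjustment. The script was tested on simulated data. Such p-values measure only the spread between these libraries, which may be technical. Replicate numbers of control and knockout libraries are not known to pair them. Their deviations from the group means correlated at 0.13, 0.09 and -0.03 across 17711 genes.

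The members and lists were chosen with earlier results of these data known. Named genes were the members, the called genes of each list (up to 4 per direction) and the 5 genes of nearest profile. Other genes, such as Alb, Elane and those at 0, were named after their values were seen. Alternatives left out each library, used stronger peaks, other territories, overlap rules, scaling, pseudocounts and filters, or a replicate block.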

Additional observations from a re-analysis of the deposited data

How the results depend on the processing

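The ratio of covered bases in the territories kept its direction under all 11 alternatives, at 1.54 to 1.85, and 0 members were called lower under all 16. Leaving out 1 library gave 3 to 6 gained regions (6 without control library 2, 5 without knockout library 1 or 3), 0 to 1 lost regions (1 without knockout library 1), 12 regions called in all libraries each time, and 3 to 4 members called higher, a count that the choice of members and the minimum largely set. With the 50000 strongest peaks of each library there were 1 gained region, 2 regions in all 6 libraries and 1 member called higher, Serpina1a, among 4 members that could be tested. With 1 kb flanks there were 1 gained region and 5 in all 6 libraries. With 25 kb flanks 1 region was lost, and 6 members were called higher, Serpina11 and Serpina12 being added. Requiring peaks to cover 50% of a region gave 5 gained regions. A minimum mean of 1000 bp left 2 members to test and 0 called higher. With a replicate block, 4 members were called higher. The replicate numbers are not known to pair libraries, and not every library correlated best with its own number. Over all genes, 1340 were called higher and 2577 lower. These counts were 2586 and 510 without scaling, 1164 and 1937 with the block, 676 to 1159 higher and 840 to 2229 lower when 1 library was left out, and 1165 and 1543 with the 50000 strongest peaks. Of 141 member differences under alternatives, 125 moved by less than 1 SD and 16 by more. Serpina1a to Serpina1e stayed above 0 in every alternative with a value, and each of the other 5 members fell below 0 in at least 1. The causes were not tested. Peak lists carry no depth, so an absent peak cannot be told apart from one too weak to call.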

Other observations

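Between the territories, the cluster held 33 further regions, of which 4 were gained (12.1%, against 10.3% of all regions), 0 were lost (against 2.62%) and 11 were called in all 6 libraries. Gained regions lay inside Serpina9 (chr12:104000408-104000845, 439 bp beyond the Serpina11 territory, with 308, 413 and 205 bp in the knockout libraries) and inside Serpina3b (chr12:104133641-104134070, with 406, 212 and 366 bp). The region chr12:104186164-104186819 lay 27725 bp from Serpina3f and had 514, 607 and 649 bp, and chr12:104366417-104366916 lay 20241 bp from Serpina3m and had 500, 353 and 248 bp. Beyond the other end of the cluster, a region inside Ppp4r4 (chr12:103598420-103598851) was lost, with 370, 432 and 318 bp in the control libraries.

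Both main regions at Serpina3i were called in every library and were wider in the knockout than in any control library for the region 2132 bp from the gene (364, 241 and 400 bp against 1004, 777 and 762 bp) and for the one inside it (317, 329 and 291 bp against 686, 388 and 465 bp). The library pattern of the Serpina3n start, called in all 3 control libraries and knockout library 1 only, was seen again 8325 bp from Serpina3m (chr12:104378450-104378832), with 297, 375 and 215 bp in the control and 355 bp in knockout library 1.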
